A study of Homo sapiens with 2 samples.

Results

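RNA levels of 9 genes that encode enzymes of serine synthesis and of folate-dependent one-carbon metabolism were compared between 2 libraries of the human multiple myeloma (MM) cell line ARP1. The genes are PHGDH, PSAT1 and PSPH of serine synthesis, SHMT1 and MTHFD1 of the cytosol, and SHMT2, MTHFD2, MTHFD1L and ALDH1L2 of the mitochondrion. All 9 were found by symbol among the 57485 genes listed in each table. The members were chosen on the contrast of these same libraries, so their levels and ratios are a description, and no test is given for them. Both libraries are of ARP1-SRD5A1-KD cells, which carry by lentivirus a short-hairpin RNA against SRD5A1 that doxycycline (Dox) induces. One library is labelled untreated and 1 is labelled as treated with Dox, and how much Dox was given, and for how long, is not given for them in the sources used here. The genotype label names SRD5A1 for the library labelled without Dox and SRD5A2 for the library labelled with Dox, while both titles name SRD5A1. With 1 library per condition, no difference has a replicate check, and with no library of Dox-treated cells without the hairpin, Dox and the hairpin cannot be told apart.

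Cells make serine from the glycolytic intermediate 3-phosphoglycerate. PHGDH oxidizes it, PSAT1 transfers an amino group to the product, and PSPH removes the phosphate. Serine hydroxymethyltransferases then split serine into glycine and a carbon unit carried by tetrahydrofolate, SHMT1 in the cytosol and SHMT2 in mitochondria. In mitochondria, MTHFD2 and MTHFD1L carry the unit on to formate, which leaves for the cytosol, and ALDH1L2 oxidizes the formyl group of 10-formyltetrahydrofolate to carbon dioxide. In the cytosol, MTHFD1 holds the corresponding activities in a single protein and supplies purine and thymidylate synthesis. Serine synthesis genes and several of the mitochondrial genes are known targets of the transcription factor ATF4, which is made under amino acid shortage and endoplasmic reticulum stress. Myeloma cells are transformed plasma cells, which secrete much protein.

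Total expected counts were 45918570 without Dox and 48728927 with Dox. Levels are given in FPKM, fragments scaled by the length of a gene's transcripts and by library size. SRD5A1, the targeted gene, was listed at 13.0 and 25.9 FPKM, respectively, a log2 ratio of 0.98 with Dox over without (0.1 FPKM added to each), so its RNA goes against the label and every direction below rests on the labels. Among 14859 genes with at least 1 FPKM in a library, 2521 (17.0%) passed 2-fold toward higher levels with Dox and 953 (6.41%) toward lower levels, and the median log2 ratio was 0.15. Higher genes made up 72.6% of those past 2-fold with the deposited FPKM and 56.1% with TMM factors from edgeR. All 7 plasma cell markers, among them SDC1, IRF4 and MZB1, were above 1 FPKM in both libraries, with summed levels of 2383 and 2263 FPKM. Of these, 1 passed 2-fold, TNFRSF17, at 97.7 and 204 FPKM (log2 ratio 1.06, and 0.85 with TMM factors). The summed markers of other cell types were 12.4 and 19.6 FPKM for B cells (mostly from CIITA) and 0.92 and 2.37 FPKM for T and NK cells. Of the 4 T and NK cell markers, 1 reached 1 FPKM and was more than 2-fold higher with Dox, while CD3D and CD2 were at 0. The sums were 0.51 and 1.01 FPKM for myeloid cells (no marker above 1 FPKM) and 2.83 and 2.98 FPKM for epithelial and stromal cells. Of the 4 epithelial and stromal markers, 2 reached 1 FPKM in a library, both within 2-fold, and DCN was at 0. Both libraries are bulk RNA of the same cell line, so these sums are not read as numbers of other cells. A marker's level in a few cells and in all cells cannot be told apart.

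All 9 genes were above 1 FPKM in both libraries. With Dox, 6 of the 9 passed 2-fold upward and 0 passed it downward, beside 17.0% and 6.41% of all genes tested; since this contrast chose the genes, nothing is read from that difference. The remaining members, MTHFD1L, SHMT1 and MTHFD1, stayed within 2-fold. The sum over the 9 genes was 754.32 TPM without Dox and 2050.55 TPM with Dox, a unit scaled to the same total in each library. All 3 serine synthesis genes and all 4 mitochondrial genes had log2 ratios above 0, and both cytosolic folate genes had log2 ratios below 0, so the 6 folate members split by compartment while the serine synthesis enzymes, which are also cytosolic, did not share the sign of the cytosolic folate pair. These signs were shared by every scaling, pseudocount and length setting tried.

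The 3 serine synthesis genes were higher in the library labelled with Dox by similar factors. PHGDH, the first and committing enzyme of the pathway (ENSG00000092621.12, chromosome 1 from 119648411 to 119744226), was listed with 2750 counts and 54.9 FPKM without Dox and with 15107 counts and 281.9 FPKM with Dox. This is a 5.13-fold difference, or a log2 ratio of 2.36 (counting interval 2.30 to 2.42). Intervals of log2 ratios are 95% exact binomial ones by Clopper-Pearson and hold counting error alone. PSAT1, the aminotransferase (ENSG00000135069.13, chromosome 9 from 78297143 to 78330093), went from 46.92 to 235.29 FPKM, a log2 ratio of 2.32 (2.28 to 2.37). PSPH, the phosphatase of the last step (ENSG00000146733.13, chromosome 7 from 56011051 to 56051604), had the lowest level of the 3, with 21.43 FPKM without Dox and 94.1 FPKM with Dox, and its log2 ratio was 2.13 (2.03 to 2.23). Among the 14859 tested genes, these log2 ratios ranked 482, 501 and 624 from the top. The counting intervals of PHGDH and PSAT1 overlapped, and that of PSPH lay below both. Summed over the 3 genes, the level was 123.25 FPKM without Dox and 611.29 FPKM with Dox, a 4.96-fold difference.

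**Figure D1:**
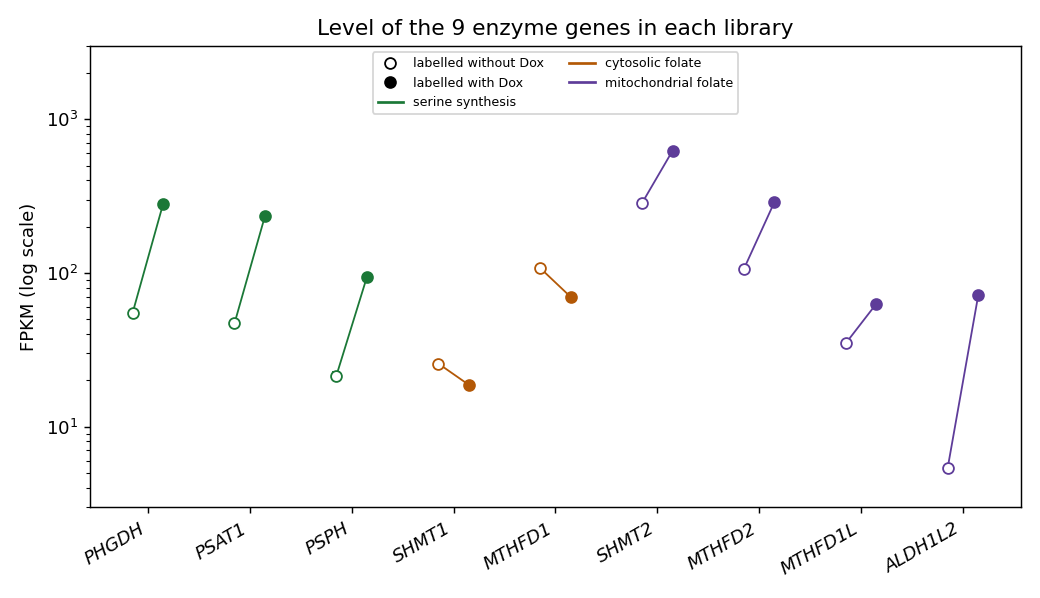
Level of each of the 9 genes in FPKM (logarithmic axis) without Dox (open points) and with Dox (filled points), as labelled, coloured by role, with exact Poisson 95% intervals of the counts that are mostly smaller than the points. The lines of the serine synthesis and mitochondrial genes slope upward, most steeply for ALDH1L2 (5.37 to 71.41 FPKM), and those of SHMT1 and MTHFD1 slope downward.

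The 4 mitochondrial folate genes were all higher in the library labelled with Dox, but by unequal factors. SHMT2, the mitochondrial serine hydroxymethyltransferase (ENSG00000182199.10, chromosome 12 from 57229327 to 57234935), had the highest level of the 9 in each library, with 284.55 FPKM without Dox and 624.14 FPKM with Dox. Its log2 ratio was 1.13 (1.10 to 1.16), close to the 2-fold line, and with TMM factors or DESeq2 size factors it was 0.92 or 0.91, under that line. MTHFD2, the dehydrogenase and cyclohydrolase of mitochondria (ENSG00000065911.11, chromosome 2 from 74198562 to 74217565), went from 106.16 to 289.41 FPKM, a log2 ratio of 1.45 (1.41 to 1.48). MTHFD1L, the synthetase that releases formate (ENSG00000120254.15, chromosome 6 from 150865549 to 151101887), went from 34.84 to 63.01 FPKM. At a log2 ratio of 0.85 (0.80 to 0.91) it had the smallest difference of the 4 and stayed within 2-fold. ALDH1L2, which oxidizes 10-formyltetrahydrofolate (ENSG00000136010.13, chromosome 12 from 105019784 to 105084577), had the largest difference of the 9. It was listed with 1687 counts and 5.37 FPKM without Dox and with 24158 counts and 71.41 FPKM with Dox, a 13.3-fold difference and a log2 ratio of 3.71 (3.64 to 3.78), which ranked 141 among all tested genes. Within this group the counting intervals of the log2 ratios did not overlap. The summed level of the 4 genes was 430.92 FPKM without Dox and 1047.97 FPKM with Dox, a 2.43-fold difference.

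Both cytosolic folate genes had lower levels with Dox, and neither passed 2-fold. SHMT1, the cytosolic serine hydroxymethyltransferase (ENSG00000176974.19, chromosome 17 from 18327860 to 18363563), had 25.74 FPKM without Dox and 18.7 FPKM with Dox, a log2 ratio of -0.46 (-0.55 to -0.37). MTHFD1, the trifunctional cytosolic enzyme (ENSG00000100714.15, chromosome 14 from 64388031 to 64463457), had 107.66 FPKM without Dox and 69.78 FPKM with Dox, a log2 ratio of -0.62 (-0.67 to -0.58). Of all tested genes, 19.5% had a log2 ratio below that of SHMT1 and 14.2% below that of MTHFD1. The summed level of the pair was 133.4 FPKM without Dox and 88.48 FPKM with Dox. Over the settings tried, the log2 ratio of SHMT1 ranged from -0.68 to -0.32 and that of MTHFD1 from -0.84 to -0.53.

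**Figure D2:**
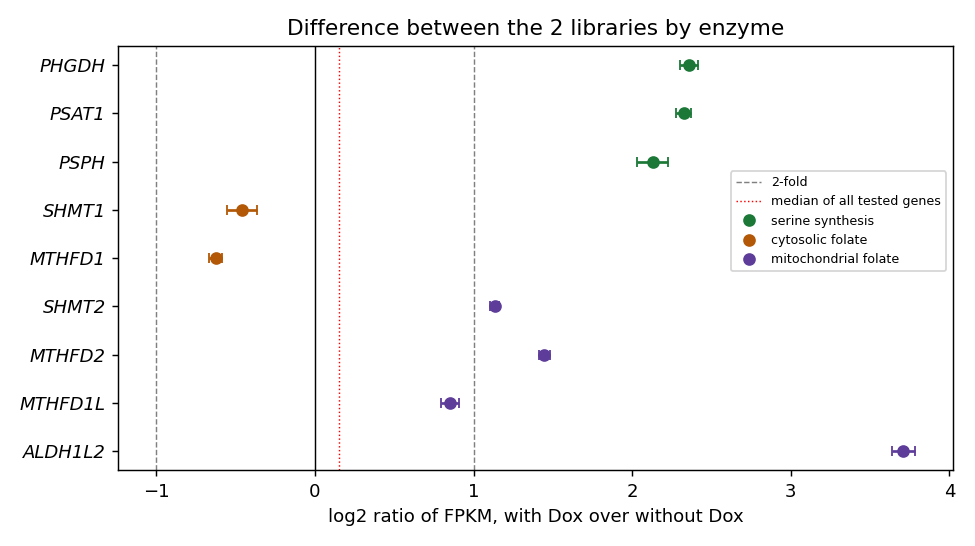
Log2 ratio of FPKM with Dox over without Dox for each gene, with exact binomial 95% intervals of the counts (bars), the 2-fold lines (dashed), 0 (solid) and the median of all tested genes (dotted, 0.15). The serine synthesis genes lie together between 2.13 and 2.36, the mitochondrial genes spread from 0.85 to 3.71, and SHMT1 and MTHFD1 lie at -0.46 and -0.62.

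Promoters are shown for 3 folate genes, MTHFD1L and MTHFD2 of the mitochondrial arm and MTHFD1 of the cytosolic arm, because they are the members whose window held a motif of the 4 searched. The windows run from 250 bases before to 50 bases after a start site listed by RefSeq on GRCh38.p14, and 6 of the 9 members matched by symbol. PSPH, SHMT2 and ALDH1L2 had no window here and were not searched. The motifs were TGATGNAA (the composite element of ATF4 and C/EBP), CACGTG (the E-box), TGACGTCA (the cyclic AMP response element) and TGACNNNGC (the core of the antioxidant response element), each on both strands. Of 35116 promoter windows, 3.62% held TGATGNAA, 7.26% CACGTG, 1.85% TGACGTCA and 13.3% TGACNNNGC. The sequences read 5′ to 3′ along the gene, with matches in capitals. They lie at chr6:150866236-150866535 for MTHFD1L, at chr2:74198365-74198664 for MTHFD2 and at chr14:64388103-64388402 for MTHFD1, all on the forward strand.
MTHFD1L: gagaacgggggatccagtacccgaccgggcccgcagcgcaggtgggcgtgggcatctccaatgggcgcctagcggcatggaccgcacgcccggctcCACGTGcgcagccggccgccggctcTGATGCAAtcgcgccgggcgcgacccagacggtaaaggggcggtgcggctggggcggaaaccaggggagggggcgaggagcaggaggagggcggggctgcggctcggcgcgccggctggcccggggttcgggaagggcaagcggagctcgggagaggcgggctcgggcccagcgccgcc
MTHFD2: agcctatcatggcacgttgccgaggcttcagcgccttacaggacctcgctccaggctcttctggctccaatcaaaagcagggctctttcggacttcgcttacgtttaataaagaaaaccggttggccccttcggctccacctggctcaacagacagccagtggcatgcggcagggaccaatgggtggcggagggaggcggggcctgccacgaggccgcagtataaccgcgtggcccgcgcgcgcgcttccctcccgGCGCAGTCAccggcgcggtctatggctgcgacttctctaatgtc
MTHFD1: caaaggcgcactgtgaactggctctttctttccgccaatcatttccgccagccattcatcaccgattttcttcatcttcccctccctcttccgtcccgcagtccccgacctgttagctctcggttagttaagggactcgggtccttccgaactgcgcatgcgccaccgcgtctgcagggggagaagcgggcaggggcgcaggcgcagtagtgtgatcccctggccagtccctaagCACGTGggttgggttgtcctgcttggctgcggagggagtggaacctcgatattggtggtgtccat
In the MTHFD1L window shown, CACGTG begins at position -154 from the start site and TGATGCAA, a form of TGATGNAA, at position -129. RefSeq lists 4 windows for MTHFD1L, of which the 3 that overlap each other hold this stretch. Their start sites differ, so in those not shown CACGTG begins at -1 or -115. TGATGCAA begins there at 25, after the start site, or at -90. MTHFD2 held TGACNNNGC on the reverse strand, at position 7 from the start site, and MTHFD1 held CACGTG at position -15. The E-box was thus in the window of a gene listed higher and of a gene listed lower with Dox. The windows of PHGDH, PSAT1 and SHMT1 held none of the 4 motifs, which says only that these letters are not in those windows. TGACGTCA was in no window of a member. The libraries measure RNA and not binding, and the matches are a description.

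Because scaling cancels within a library, the balance of the compartments was also read from FPKM ratios of genes in the same library. The mitochondrial genes held 76.4% of the summed FPKM of the 6 folate members without Dox (counting interval 76.0% to 76.7%) and 92.2% with Dox (92.1% to 92.4%). The ratio of the mitochondrial to the cytosolic sum was 3.23 without Dox and 11.8 with Dox, a 3.67-fold difference. Without ALDH1L2, the member that differed most, the ratio was 3.19 and 11.0. The median log2 ratio of the 4 mitochondrial genes exceeded that of the cytosolic pair by 1.83, and from 1.78 to 1.83 over the settings tried. The intervals of these ratios come from the Poisson variance of the counts and cover counting error only.

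By step, the mitochondrial enzyme gained on its cytosolic counterpart in each case. For pairs of members this follows from the signs of their log2 ratios given above, and MTHFD1 is the counterpart of both MTHFD1L and MTHFD2. For the serine hydroxymethyltransferases, SHMT2 was listed at 11.1 times the FPKM of SHMT1 without Dox (10.6 to 11.6) and at 33.4 times with Dox (31.8 to 35). For the synthetases, MTHFD1L was at 0.32 times MTHFD1 without Dox and 0.90 times with Dox. MTHFD2 and MTHFD1 had nearly equal levels without Dox, with a ratio of 0.99 whose interval of 0.96 to 1.01 includes equality, and with Dox MTHFD2 was at 4.15 times MTHFD1. The largest shift was between the 10-formyltetrahydrofolate dehydrogenases. ALDH1L2 was at 0.12 times the FPKM of its cytosolic paralog ALDH1L1 without Dox and at 1.15 times with Dox, a 9.25-fold difference, although ALDH1L1, which is not a member, was itself listed higher with Dox (43.14 and 61.99 FPKM). MTHFD2 also gained on its own mitochondrial paralog MTHFD2L, with ratios of 16.3 and 34.2. MTHFD2L went from 6.51 to 8.45 FPKM, a log2 ratio of 0.37 (0.20 to 0.54).

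Within the serine synthesis arm the proportions moved little. PHGDH was at 1.17 times the FPKM of PSAT1 without Dox and 1.2 times with Dox, a log2 difference of 0.03 whose interval of -0.04 to 0.11 includes 0. PHGDH was at 2.56 times PSPH without Dox and 3.0 times with Dox. Within the mitochondrial arm, SHMT2 was at 2.68 times MTHFD2 without Dox and 2.16 times with Dox, and MTHFD2 at 3.05 and 4.59 times MTHFD1L. Set against the cytosolic folate pair, the summed serine synthesis FPKM was at 0.92 times without Dox and 6.91 times with Dox.

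**Figure D3:**
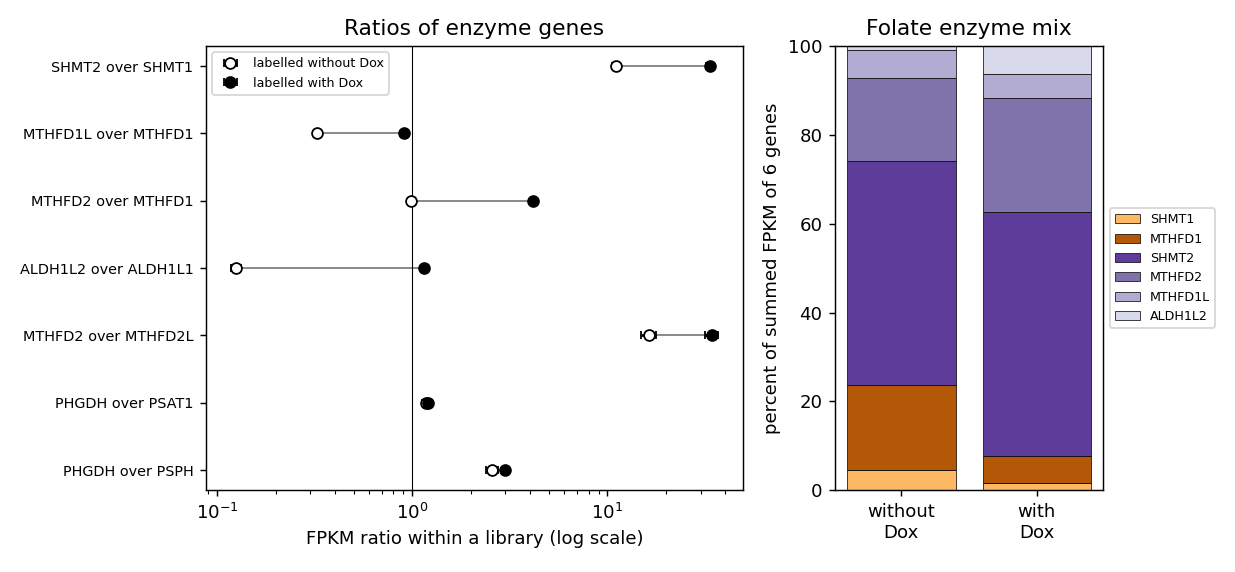
Left, FPKM ratios of named gene pairs within the library labelled without Dox (open) and with Dox (filled) on a logarithmic axis, with 95% counting intervals as bars. Right, percent of the summed FPKM of the 6 folate members held by each gene in each library. ALDH1L2 over ALDH1L1 moves from 0.12 to 1.15 while PHGDH over PSAT1 stays at 1.17 and 1.2, and the cytosolic part of the bars shrinks as the mitochondrial share goes from 76.4% to 92.2%.

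In the order of levels without Dox, SHMT2 came first and was followed by MTHFD1, MTHFD2, PHGDH, PSAT1, MTHFD1L, SHMT1, PSPH and ALDH1L2. Only the neighbours MTHFD1 and MTHFD2 had overlapping counting intervals there, at 107.66 and 106.16 FPKM. With Dox the order was SHMT2, MTHFD2, PHGDH, PSAT1, PSPH, ALDH1L2, MTHFD1, MTHFD1L and SHMT1. The overlapping neighbours were MTHFD2 and PHGDH, at 289.41 and 281.9 FPKM, and ALDH1L2 and MTHFD1, at 71.41 and 69.78 FPKM. MTHFD1 thus went from place 2 to place 7, and ALDH1L2 from place 9 to place 6.

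The other genes of the pathway, 65 genes in 8 lists, were described in the same way, and 55 of them had at least 1 FPKM in a library. Of these 55, 8 (14.5%) passed 2-fold upward with Dox and 6 (10.9%) downward, beside 17.0% and 6.41% of all tested genes. Their median log2 ratio was -0.08, beside 0.15 for all tested genes. With TMM factors the counts were 7 higher and 9 lower, and with TPM 9 higher and 4 lower.

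Among the other cytosolic folate enzymes, 0 of 7 tested genes were more than 2-fold higher and 1 was lower, beside 17.0% and 6.41% of all tested genes. The median log2 ratio of the 7 was 0.01. The lower gene was FPGS, which adds the glutamate tail that holds folates in the cell. FPGS was listed at 44.48 FPKM without Dox and 18.25 FPKM with Dox (log2 ratio -1.28). These values are per gene and do not separate protein forms of different compartments. TYMS, the thymidylate synthase, was listed at 210.72 and 109.53 FPKM, a log2 ratio of -0.94 (-1.15, past 2-fold, with TMM factors). MTHFS was listed at 12.46 and 9.47 FPKM. Beside 17.0% of all tested genes, 1 of the 4 other mitochondrial folate enzymes tested was more than 2-fold higher. This was DMGDH, which demethylates dimethylglycine, with 11 counts and 0.41 FPKM without Dox and 287 counts and 6.47 FPKM with Dox, a log2 ratio of 3.69 whose counting interval runs from 2.83 to 4.71. DHFR2, listed under its older symbol DHFRL1, went from 5.19 to 9.58 FPKM, and MTFMT from 11.5 to 8.45 FPKM, both within 2-fold.

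All 3 folate transporters tested had log2 ratios below 0, as did 41.5% of all tested genes (35.5% with TPM and 52.6% with TMM factors). SLC19A1, the reduced folate carrier of the plasma membrane, was listed at 47.18 FPKM without Dox and 11.94 FPKM with Dox, a log2 ratio of -1.97 (-2.07 to -1.88). It was the 1 gene of this list past 2-fold, where 6.41% of all tested genes were more than 2-fold lower. SLC25A32, the mitochondrial folate transporter, had a log2 ratio of -0.47, and SLC46A1 of -0.08, which was above 0 with TPM. FOLR1 and FOLR2 were listed at 0 counts in both libraries, where the limit that a count of 0 allows, 3 counts, is 0.065 and 0.062 CPM (counts scaled by library size alone). In the glycine cleavage system, which breaks down glycine in mitochondria, 1 of 4 genes was more than 2-fold higher, beside 17.0% of all tested genes. The higher gene was AMT, at 0.90 and 2.03 FPKM, a gene named after its value was seen. Its log2 ratio of 1.09 has a counting interval of 0.73 to 1.47 that includes 2-fold, and it was within 2-fold at 0.89 with TMM factors, 0.88 with DESeq2 size factors and 0.67 with a pseudocount of 1 FPKM. Its partners GLDC and GCSH were listed lower, with log2 ratios of -0.73 and -0.71, and DLD at 0.09.

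Purine synthesis takes up carbon units from 10-formyltetrahydrofolate at the steps of GART and ATIC, not at every step. Of its 12 genes, 11 had log2 ratios below 0 (10 with TPM), beside 41.5% of all tested genes. The share of all tested genes was 35.5% with TPM and 52.6% with TMM factors. With the deposited FPKM, GART was the gene above 0, at a log2 ratio of 0.27, and ATIC was at -0.20. Both were named after their values were seen. IMPDH1 was the 1 gene more than 2-fold lower, beside 6.41% of all tested genes, with 58.36 FPKM without Dox and 23.04 FPKM with Dox (log2 ratio -1.34). The median log2 ratio of the 12 genes was -0.56 with the deposited FPKM and lay between -0.78 and -0.47 over the settings tried. PRPS1, PRPS2 and PFAS had log2 ratios of -0.89, -0.69 and -0.69, and PRPS1 passed 2-fold, at -1.10, with TMM factors. In the methionine cycle, 1 of 7 tested genes was more than 2-fold higher, beside 17.0% of all tested genes, and the median log2 ratio of the 7 was 0.08. The higher gene was AHCYL1, a relative of the S-adenosylhomocysteine hydrolase AHCY, at 13.28 and 33.1 FPKM, while AHCY itself was listed at 130.09 and 98.57 FPKM and MAT2A at 229.58 and 195.42 FPKM.

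Among transporters of serine and glycine, 3 of 10 tested genes were more than 2-fold higher and 2 were lower, beside 17.0% and 6.41% of all tested genes. The median log2 ratio of the 10 was 0.74. The higher genes were SLC6A9, the glycine transporter GlyT1, at 2.83 and 74.63 FPKM, SLC38A2 at 44.85 and 243.99 FPKM, and SLC1A5 at 221.71 and 686.58 FPKM. The lower genes were SFXN1, which brings serine into mitochondria, with a log2 ratio of -1.09 from 100.93 FPKM without Dox and 47.41 FPKM with Dox, and SLC38A5, named after its value was seen, at -1.07. With TPM both were within 2-fold, at -0.99 and -0.97, and in CPM SFXN1 was at -0.86. Of the other serine and glycine enzymes, 2 of 8 tested genes were more than 2-fold higher and 1 was lower, beside the same shares of all tested genes. SRR, the serine racemase, was listed at 7.58 and 19.2 FPKM, and SDSL, named after its value was seen, at 1.81 and 4.84 FPKM. GCAT was lower, at 13.09 and 5.68 FPKM.

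**Figure D4:**
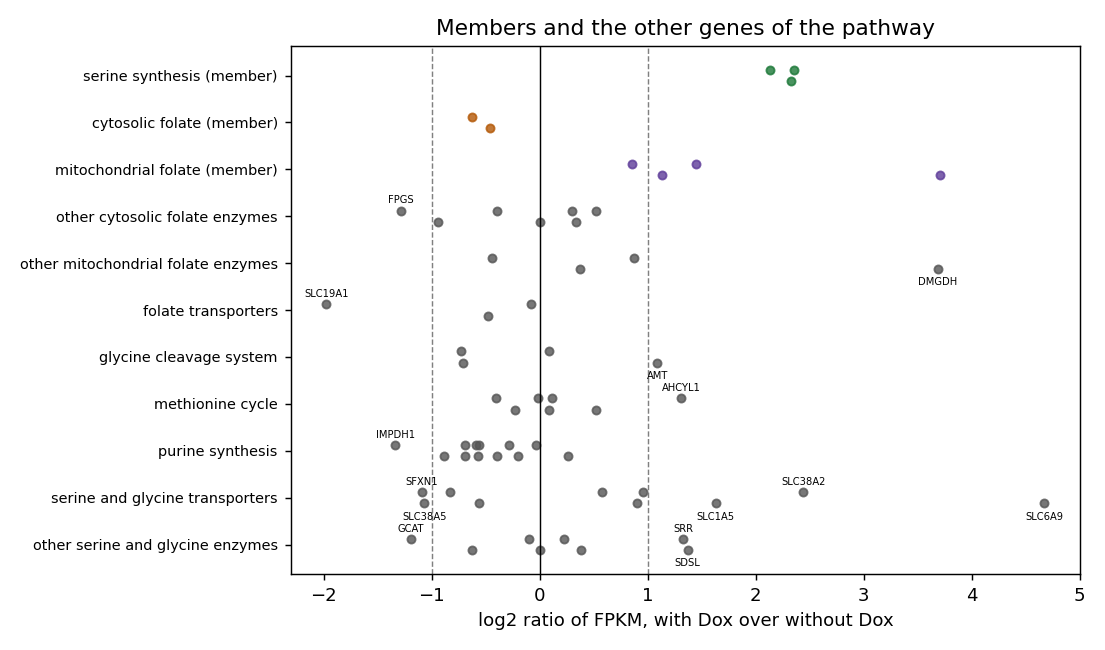
Log2 ratio of FPKM with Dox over without Dox for the members (coloured) and for the other tested pathway genes (grey), 1 point per gene and 1 row per list, with 2-fold lines dashed and other genes past 2-fold named. The serine synthesis and mitochondrial members lie right of 0, while 11 of the 12 purine synthesis genes (10 with TPM) and all 3 folate transporters (SLC46A1 not with TPM) lie left of it.

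Some of the members share reads or sequence with other genes. The expected counts of PHGDH, PSAT1, MTHFD1L and ALDH1L2 were whole in both libraries, and those of PSPH, SHMT1, MTHFD1, SHMT2 and MTHFD2 were not whole in at least 1 library, as happens where reads are divided among genes. MTHFD2 shares 1324 of its 4870 exon bases in the annotation with SLC4A5 of the other strand, which was listed at 0.91 and 1.09 FPKM. ALDH1L2 shares 145 of 8507 exon bases with C12orf45, at 15.83 and 11.02 FPKM, and SHMT2 shares 33 of 4838 with NDUFA4L2, at 2.62 and 13.3 FPKM. SHMT1 shares 196 of 7281 with SMCR8, at 5.97 and 7.44 FPKM, and MTHFD1 shares 178 of 9377 with ZBTB25, at 4.35 and 6.76 FPKM. MTHFD1 and SHMT2 share more bases than these 178 and 33 with antisense genes for which no level is given here. They are 756 bases of MTHFD1 opposite AL122035.2 and 427 bases of SHMT2 opposite AC137834.2. Whether the reads were counted by strand is not given in the sources used here, so reads of the shared bases cannot be assigned with certainty. In the GO terms that the tables carry, mitochondrial matrix was listed for SHMT2, MTHFD2, MTHFD1L and ALDH1L2 and for no other member. The term cytosol was listed for 6 members, the serine synthesis genes, both cytosolic folate genes and also MTHFD2.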

How the data were processed

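RNA of ARP1-SRD5A1-KD cells was enriched for poly(A) RNA and sequenced as paired ends of 150 bases with the NovaSeq 6000, with 1 library per condition. The authors deposited 1 table per library with expected counts per gene, of which 14.5% and 15.4% are not whole. The authors deposited TPM, scaled by effective length to sums of 1000000 and 999999, and they deposited FPKM, whose sums are 911506 and 852316. The submitters' processing notes name HISAT2 2.1.0, Bowtie 0.12.2, StringTie 1.3.4d and hg19, without roles. The tables hold no coordinates. Of 204675 listed transcripts, 202888 match GENCODE release 29 by ID and version, including all transcripts of the 9 genes, and 840 are assembled ones, so GRCh38 coordinates of that release are given.

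Log2 ratios were computed on FPKM plus a pseudocount of 0.1, which understates the difference of low genes, over genes with at least 1 FPKM in a library, and genes past 2-fold were counted. No p-value is given, since edgeR, which the paper used, cannot estimate dispersion from 1 library per condition. The ratio step was tested on simulated counts that held counting error only, so that test does not cover variation between replicate libraries. Scaling factors came from expected counts rounded to whole numbers, over genes with at least 10 counts, with edgeR 4.0.16 (TMM) and DESeq2 1.42.0 in R 4.3.3. Python 3.11.15, pandas 2.3.3, numpy 2.4.6, scipy 1.17.1 and matplotlib 3.10.9 were used for the rest. The members and lists were chosen with earlier results of these data known. Named genes are the members, SRD5A1, the paralogs MTHFD2L and ALDH1L1, and of each other list up to 4 genes with the largest absolute log2 ratio among those that reached 5 FPKM in either library, apart from genes said to be named after their value was seen. DHFR2 was matched through its older symbol in RefSeq. Promoter sequences are from RefSeq. Protein sequences were not used here. The level of 1 marker gene is not reported here.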

Additional observations from a re-analysis of the deposited data

How the results depend on the processing

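Alternatives were a pseudocount of 1 or 0.01 FPKM, no filter or a filter of 5 FPKM, deposited TPM, FPKM scaled by TMM factors or DESeq2 size factors, and CPM without length. The number of members past 2-fold was 6, or 5 with either set of factors, where SHMT2 dropped out. The median log2 ratio of all tested genes moved from 0.15 to -0.05 and -0.06 with these factors and to 0.26 with TPM. The log2 ratio of the summed serine synthesis FPKM was 2.31, and 2.41 with TPM, 2.1 with TMM factors and 2.09 with DESeq2 size factors, by construction of the scaling. The mitochondrial share was 69.1% and 90.8% in CPM, where length is not divided out, without and with Dox. Of 54 single-member log2 ratios under alternatives, 32 moved beyond their counting interval and 0 changed sign. With no filter, 4735 genes passed 2-fold upward and 1897 downward, and with a pseudocount of 1 FPKM 1606 and 651; at 5 FPKM the counts were 1256 and 603, and with TMM and DESeq2 factors 1518 and 1556 genes were lower. No paired analysis was possible because each condition has 1 library, and for that reason no library could be left out. The depth limits DMGDH, whose level without Dox rests on 11 counts.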

Other observations

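The mean length of a gene's RNA, which the tables weight by the estimated abundance of its transcripts, differed between the libraries for some members. SHMT1 was listed with a mean of 1962.05 bases without Dox and 2142.43 bases with Dox, and SHMT2 with 1331.28 and 1418.63 bases. PSPH was listed with 1338.51 and 1221.2 bases. For PHGDH, PSAT1, MTHFD2, MTHFD1L and ALDH1L2 the log2 ratio of the mean lengths lay between -0.02 and 0.02, and for MTHFD1 it was 0.05. Since FPKM divides by length, the log2 ratio of SHMT1 was -0.46 in FPKM and -0.32 in CPM, and that of SHMT2 1.13 and 1.24. Which transcripts changed was not tested, as the tables give values per gene.

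The 9 genes together took 0.11% of all expected counts without Dox and 0.30% with Dox. By FPKM, SHMT2 stood at place 360 of the 14859 tested genes without Dox and 159 with Dox, PHGDH at 2178 and 329, and ALDH1L2 at 9309 and 1556.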
